A study of Homo sapiens with 6 samples.

Results

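The 52 genes described here code for the enzymes and transporters that carry glucose carbon through glycolysis, the pentose phosphate pathway and the tricarboxylic acid (TCA) cycle. They were chosen by name, and all 52 were found among the 19201 entries of the deposited count table and passed the filter on low counts. RNA-seq counts came from 3 libraries of H1299 cells with the genotype lncBCAS1-4_1 overexpressed and from 3 libraries of wildtype H1299 cells, which served as controls. H1299, from which both groups derive, is a human cell line of non-small cell lung carcinoma. The labels name no vector, clone or treatment for either group, the level of lncBCAS1-4_1 itself was not analysed here, and whatever the overexpression procedure did and whatever the RNA did cannot be told apart. Whether replicates came from separate cultures is not labelled, and the p-values therefore reflect library-to-library spread that may be technical.

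Glycolysis splits glucose into pyruvate in the cytosol and yields ATP and NADH. Pyruvate is either reduced to lactate and exported or imported into mitochondria, where the pyruvate dehydrogenase complex turns it into acetyl-CoA for the TCA cycle. The pentose phosphate pathway branches off early and supplies NADPH and ribose. Cancer cells, lung cancer cells among them, often take up much glucose and release lactate even with oxygen present, and the series title places glycolysis beside lncBCAS1-4_1 and active vitamin D.

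Library totals ran from 84531039 to 92780032 counts. The line's keratin genes KRT8 and KRT18 were at 418 to 478 and 1231 to 1407 CPM (counts per 1000000 library counts) in the overexpressing libraries, against 353 to 388 and 905 to 1037 CPM in the controls. Of 12 fixed markers of leukocytes, endothelium and stroma, 7 had an entry. Apart from the lysosomal gene CD68, which epithelial lines also express, they summed to 2.32 to 2.80 CPM in the overexpressing libraries and 1.54 to 2.52 CPM in the controls. CD68 itself was at 79.3 to 87.8 CPM in the overexpressing libraries, against 69.6 to 73.9 CPM in the controls. Its log2 fold change was 0.21 (edgeR, adjusted p = 0.0094). CYP24A1, the vitamin D-inactivating hydroxylase, separated the groups with 212102 to 299348 counts in the overexpressing libraries, against 57 to 81 in the controls.

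Across the 52 genes, 24 were higher in the overexpressing cells (46.2%, against 18.3% of all 19101 entries tested) and 11 were lower (21.2%, against 19.7%), at an adjusted p under 0.05 by edgeR's quasi-likelihood test. Their median log2 fold change was 0.16, and that of all entries was -0.0041. Most differences were small: 2 called genes, pyruvate carboxylase and the muscle-type enolase ENO3, differed by more than 1.5-fold. In 24 of the 52 genes (46.2%) every overexpressing library lay above every control, against 24.7% of all entries. In 13 of the 52 every overexpressing library lay below every control, against 26% of all entries. The rises were in glucose uptake, phosphofructokinase, 5 of 8 genes from aldolase to enolase, 4 of 6 pentose phosphate genes, 6 of 12 mitochondrial TCA cycle genes, and SLC16A3, PDK2, PDHB and pyruvate carboxylase. The falls were in SLC16A1, PDK3, the pyruvate dehydrogenase complex subunits DLAT and DLD, 3 mitochondrial TCA cycle genes, the cytosolic MDH1 and ACO1, the malic enzyme ME2, and RPE of the pentose phosphate pathway. In bulk RNA of a cell line, a change in some cells and a smaller change in all cells cannot be told apart.

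Direction followed the base composition of the transcripts. Of the 28 genes whose canonical transcript was at least 50% G and C, 22 were higher and none was lower, by edgeR at an adjusted p under 0.05. Of the 24 genes under 50%, 2 were higher and 11 lower. Shares of all entries within these GC classes were not computed. Over all entries of any GC content 18.3% were higher and 19.7% lower. Across the 52 genes Pearson's r between GC content and log2 fold change was 0.79 and Spearman's rho 0.86, and over 10128 entries with a mean log2 CPM above 3 rho was 0.72. The relation was thus not particular to the 52. Genes share the 6 libraries and are not independent replicates. The libraries themselves differed in this respect: the median log2 deviation from the 6-library mean of the genes highest in GC content (top 25%) minus that of the lowest 25% was 0.38, 0.42 and 0.17 in overexpressing libraries 1 to 3, against -0.40, -0.40 and -0.17 in controls 1 to 3. Among pairs across the groups, overexpressing library 3 and control 3 lay nearest, and each still lay closer to its own group. The fit was repeated with GC content and transcript length of each library taken out as offsets, called the adjusted fit below, and its value is given beside each gene. In that fit 15 of the 52 genes were higher (28.8%, against 11.5% of all entries), 3 were lower (5.77%, against 11.1%), the median was 0.057 (-0.013 over all entries), and rho with GC content was 0.13. A difference in how well GC-rich fragments were recovered and a change of expression that follows GC content cannot be told apart in these libraries.

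**Figure D1:**
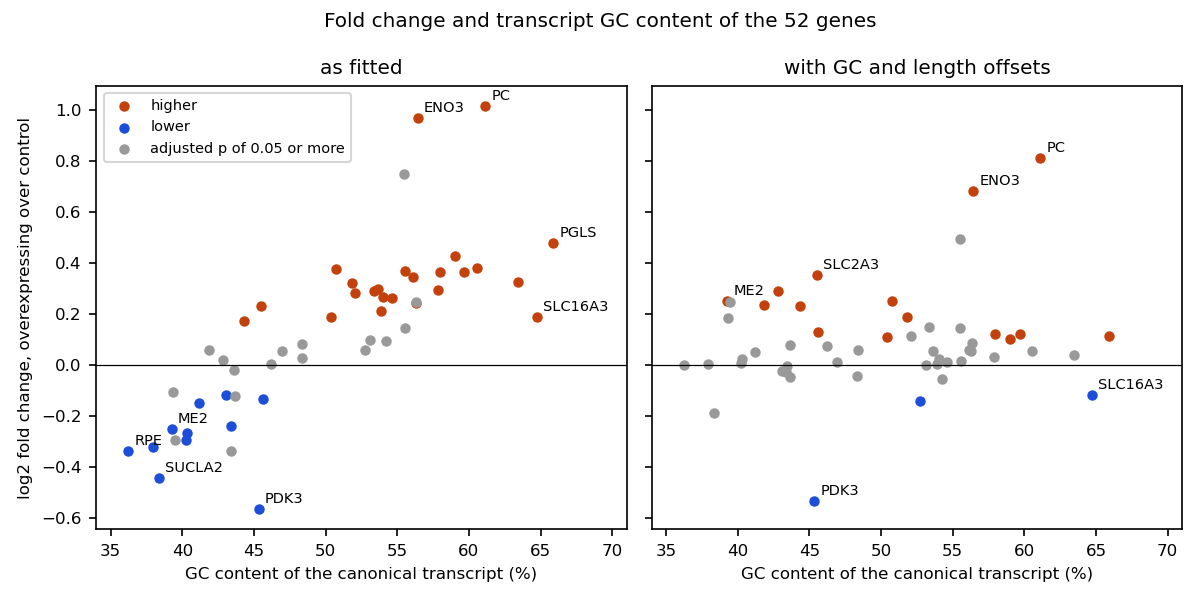
Log2 fold change (overexpressing over control) of the 52 genes against the GC content of the canonical transcript in percent, as fitted (left) and with GC and length offsets (right). Points are genes, coloured by their call at an adjusted p of 0.05. As fitted, rho is 0.86, and with the offsets it is 0.13, with PC, ENO3 and PDK3 standing apart in both panels.

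Sequences of sister genes called in opposite directions as fitted show the contrast in composition. In the adjusted fit neither pair shown was called in opposite directions. The pairs are a selection. The kinase genes PDK2 and PDK3, not shown, were called in opposite directions in both fits. As fitted, PDHB was higher at 44.3% GC and DLAT, of the same complex, lower at 40.3% GC. IDH3G and IDH3A are subunits of the same TCA cycle enzyme, and SLC16A3 and SLC16A1 are lactate transporters of the same family. Shown are the first 120 coding bases of each GENCODE 44 canonical transcript, 5′ to 3′, with every G and C in capitals. By GRCh38 they lie at chrX:153790813-153794326 on the minus strand (2 exons), chr15:78149404-78157577 on the plus strand (3 exons), chr17:82236009-82236128 on the plus strand and chr1:112929189-112929308 on the minus strand.
IDH3G: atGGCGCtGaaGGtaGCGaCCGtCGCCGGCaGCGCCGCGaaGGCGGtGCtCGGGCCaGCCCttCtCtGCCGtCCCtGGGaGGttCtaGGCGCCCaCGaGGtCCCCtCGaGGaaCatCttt
IDH3A: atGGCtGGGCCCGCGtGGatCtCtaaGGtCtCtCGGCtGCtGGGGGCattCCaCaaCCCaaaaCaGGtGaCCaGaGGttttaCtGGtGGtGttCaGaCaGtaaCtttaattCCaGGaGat
SLC16A3: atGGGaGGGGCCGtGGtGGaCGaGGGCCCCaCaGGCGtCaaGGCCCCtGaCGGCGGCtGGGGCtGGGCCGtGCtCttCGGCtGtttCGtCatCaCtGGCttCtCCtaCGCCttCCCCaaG
SLC16A1: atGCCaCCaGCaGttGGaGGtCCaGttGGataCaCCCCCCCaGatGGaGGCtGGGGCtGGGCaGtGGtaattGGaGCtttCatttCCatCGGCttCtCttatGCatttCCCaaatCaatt
G and C made up 82, 63, 82 and 62 of the 120 bases of IDH3G, IDH3A, SLC16A3 and SLC16A1. Over the whole transcript GC content was 59.0% in IDH3G and 43.4% in IDH3A, and 64.7% in SLC16A3 and 40.3% in SLC16A1.

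In total 10 genes were higher and 1 was lower in the fit without offsets, the adjusted fit and both added versions of the adjustment (GC content alone, and GC content and length of the coding sequence). The higher ones were the glucose transporter SLC2A3, the phosphofructokinase PFKM, ENO3, the pyruvate dehydrogenase subunit PDHB, pyruvate carboxylase, the TCA cycle subunits IDH3G and DLST, and the pentose phosphate enzymes PGLS, PGD and TKT. The lower one was the pyruvate dehydrogenase kinase PDK3. The share of all entries called alike in all 4 fits was not computed. Each fit alone called 11.5% to 18.3% of all entries higher and 11.1% to 19.7% lower. In the adjusted fit 8 of the 15 higher calls and 2 of the 3 lower calls held when any 1 library was left out, against 21 of 24 and 5 of 11 as fitted. How many calls over all entries held in this way was not counted. The number of higher calls in the adjusted fit was 8 without overexpressing library 1, control 1 or control 2, and 9 without overexpressing library 2. As fitted, lower calls numbered 6 without overexpressing library 1, 7 without overexpressing library 2, 6 without control 1 and 5 without control 2.

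**Figure D2:**
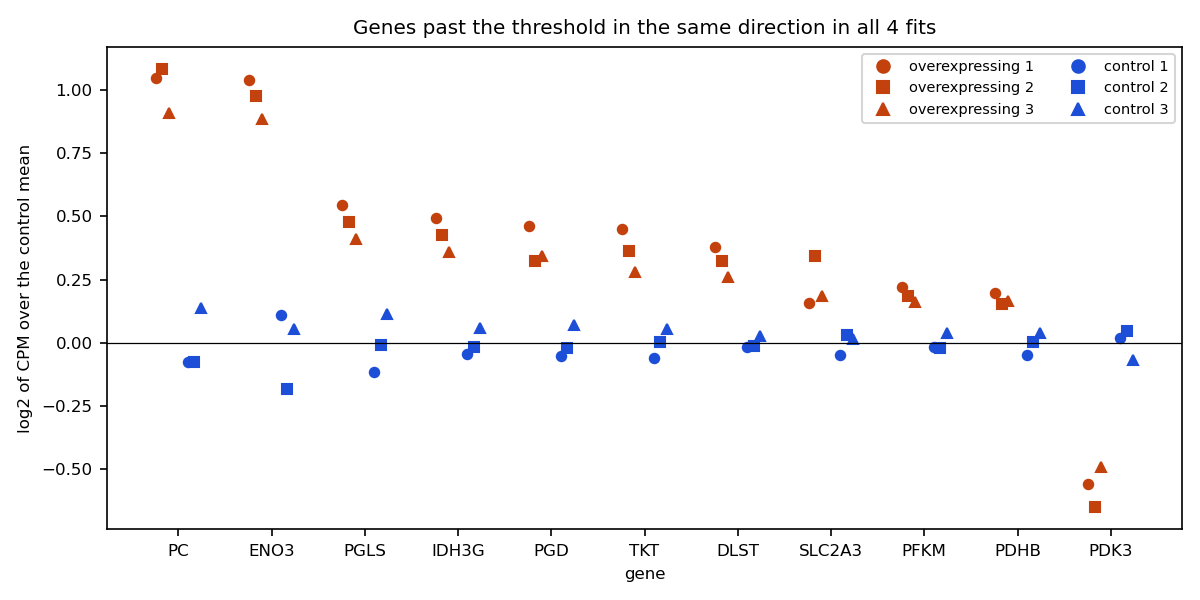
CPM of the 11 genes called in the same direction in all 4 fits, as the log2 ratio to the mean of the controls, with one point for each library and overexpressing libraries left of the controls. All overexpressing libraries lie above all controls in 10 genes and below them in PDK3, and PC and ENO3 lie about 1 log2 unit above. The genes were picked by their calls in these same libraries, which largely fixes this separation. Of all entries 24.7% had every overexpressing library above every control and 26% below.

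Both glucose transporter genes were higher. SLC2A1 was at 122, 120.2 and 102 CPM in the overexpressing libraries, against 89.5, 92.0 and 99.8 CPM in the controls. SLC2A1 had a log2 fold change of 0.29 (SE 0.072, adjusted p = 0.011), and of 0.15 (adjusted p = 0.1) in the adjusted fit. The adjusted fit no longer called this transporter, the widespread basal GLUT1. SLC2A3 was at 82.8, 94.1 and 84.4 CPM in the overexpressing libraries, against 71.8, 75.9 and 75.02 CPM in the controls. SLC2A3 had a log2 fold change of 0.23 (SE 0.056, adjusted p = 0.011), and of 0.35 (adjusted p = 0.0013) in the adjusted fit. SLC2A3 codes for the high-affinity transporter GLUT3, and its 3 overexpressing libraries lay above all controls. Counts of its 1 pseudogene entry came to 0.22% of its own. The levels per length were alike in order in both groups: SLC2A1 was at 67.5 ± 5.12 TPM in the overexpressing libraries and 60.0 ± 2.85 TPM in the controls, and SLC2A3 at 45.4 ± 3.84 TPM in the overexpressing libraries and 42.0 ± 1.23 TPM in the controls. SLC2A1 held 62.5%, 59.1% and 57.8% of the summed level in the overexpressing libraries, against 58.5%, 57.8% and 60.1% in the controls, and these ranges overlapped (exact 2-sided permutation test, p = 0.70).

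Hexokinase HK1, which traps glucose as glucose 6-phosphate, and GPI, which isomerises it, were not called. HK1 averaged 118 ± 2.86 CPM in the overexpressing libraries and 110.4 ± 11.6 CPM in the controls (SD, n = 3 each), and its log2 fold change was 0.093 (adjusted p = 0.34), or -0.054 (adjusted p = 0.56) in the adjusted fit. GPI averaged 921 ± 49.9 CPM in the overexpressing libraries and 861 ± 46.1 CPM in the controls (SD, n = 3 each), and its log2 fold change was 0.097 (adjusted p = 0.19), or 0.0016 (adjusted p = 0.99) in the adjusted fit. All 3 phosphofructokinase genes, for the subunits that commit sugar to glycolysis, were higher. PFKL was at 211, 209 and 194 CPM in the overexpressing libraries, against 149, 162 and 179 CPM in the controls. PFKL had a log2 fold change of 0.33 (SE 0.067, adjusted p = 0.0047), and of 0.038 (adjusted p = 0.56) in the adjusted fit. The liver-type gene is the most GC-rich of them at 63.4% and kept no call in the adjusted fit. PFKM was at 200.3, 196 and 192 CPM in the overexpressing libraries, against 170.0, 169.5 and 177 CPM in the controls. PFKM had a log2 fold change of 0.19 (SE 0.039, adjusted p = 0.0047), and of 0.11 (adjusted p = 0.039) in the adjusted fit. The PFKM call in the adjusted fit was lost without control 1, control 2, overexpressing library 1 or overexpressing library 3, with log2 fold changes of 0.09 to 0.13 over the 6 omissions and a largest adjusted p of 0.14. PFKP was at 429, 415 and 395 CPM in the overexpressing libraries, against 326, 330.3 and 356 CPM in the controls. PFKP had a log2 fold change of 0.29 (SE 0.049, adjusted p = 0.0016), and of 0.033 (adjusted p = 0.51) in the adjusted fit. The coding sequence adjustment kept the PFKP call (0.15, adjusted p = 0.014), and GC content alone did not (0.058, adjusted p = 0.22). The platelet-type gene PFKP was the most abundant, at 313 ± 5.32 TPM in the overexpressing libraries and 278 ± 10.4 TPM in the controls, ahead of PFKL at 140.3 ± 4.06 TPM in the overexpressing libraries and 122 ± 10.3 TPM in the controls and PFKM at 126 ± 1.23 TPM in the overexpressing libraries and 121 ± 1.54 TPM in the controls, and the order of PFKL and PFKM depended on the length used. With the union of exons PFKM held 25.9%, 26.0% and 26.8% of the summed level in the overexpressing libraries, against 28.6%, 27.8% and 27.0% in the controls, and PFKL 22.2%, 22.5% and 21.9% in the overexpressing libraries, against 20.3%, 21.6% and 22.2% in the controls. The muscle-type share of the summed phosphofructokinase level was 21.5%, 21.6% and 22.3% in the overexpressing libraries, against 23.9%, 23.2% and 22.5% in the controls, without overlap but at the smallest p that 3 against 3 libraries allow (exact 2-sided permutation test, p = 0.10). The PFKFB genes set fructose 2,6-bisphosphate, the main activator of phosphofructokinase, and none of the 3 was called. PFKFB2 averaged 10.4 ± 1.504 CPM in the overexpressing libraries and 13.2 ± 0.587 CPM in the controls (SD, n = 3 each), and its log2 fold change was -0.34 (adjusted p = 0.05), or -0.0046 (adjusted p = 0.98) in the adjusted fit. PFKFB3 averaged 54.5 ± 4.52 CPM in the overexpressing libraries and 49.3 ± 2.01 CPM in the controls (SD, n = 3 each), and its log2 fold change was 0.14 (adjusted p = 0.12), or 0.015 (adjusted p = 0.89) in the adjusted fit. PFKFB4 averaged 9.57 ± 0.824 CPM in the overexpressing libraries and 8.07 ± 1.49 CPM in the controls (SD, n = 3 each), and its log2 fold change was 0.25 (adjusted p = 0.24), or 0.055 (adjusted p = 0.82) in the adjusted fit.

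Of the 8 genes from aldolase to enolase 5 were higher and none was lower. ALDOA was at 1716, 1641 and 1475 CPM in the overexpressing libraries, against 1174, 1180.1 and 1358 CPM in the controls. ALDOA had a log2 fold change of 0.38 (SE 0.071, adjusted p = 0.0028), and of 0.053 (adjusted p = 0.39) in the adjusted fit. Aldolase splits fructose 1,6-bisphosphate. An overlapping same-strand entry covers 80.4% of the ALDOA transcript and was at 14.3 CPM in the overexpressing libraries and 15.9 CPM in the controls, so reads could be split between them. ALDOC, the brain-type aldolase, rested on 38, 24 and 37 counts in the overexpressing libraries, against 17, 16 and 29 in the controls, and was not called (log2 fold change 0.75, SE 0.45, adjusted p = 0.24). TPI1 was at 1919.9, 1770.0 and 1663 CPM in the overexpressing libraries, against 1431, 1446 and 1569.9 CPM in the controls. TPI1 had a log2 fold change of 0.27 (SE 0.059, adjusted p = 0.0063), and of 0.022 (adjusted p = 0.74) in the adjusted fit. TPI1 interconverts the triose phosphates, and its 2 pseudogene entries came to 1.66% of its counts. GAPDH was at 12766, 11929.6 and 11271 CPM in the overexpressing libraries, against 9213, 9174 and 9896 CPM in the controls. GAPDH had a log2 fold change of 0.35 (SE 0.052, adjusted p = 0.001), and of 0.059 (adjusted p = 0.22) in the adjusted fit. GAPDH oxidises glyceraldehyde 3-phosphate and was the most abundant of the 52, at 18581 ± 626 TPM in the overexpressing libraries and 15882 ± 518 TPM in the controls; the adjustment by GC content alone (log2 fold change 0.14, adjusted p = 0.028) and that by coding sequence (0.20, adjusted p = 0.01) still called it. An opposite-strand entry at 8.52 CPM in the overexpressing libraries and 2.34 CPM in the controls covers 32.8% of the GAPDH transcript, and the strand setting of the counting was not stated.

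The 2 enzymes after GAPDH were not called as fitted and were called in opposite directions in the adjusted fit. PGK1 was at 1047, 1129 and 971 CPM in the overexpressing libraries, against 1004, 1005 and 1099 CPM in the controls. PGK1 had a log2 fold change of 0.018 (SE 0.06, adjusted p = 0.85), and of 0.29 (adjusted p = 0.026) in the adjusted fit. PGK1 makes the first ATP of the payoff phase, and the groups overlapped. The PGK1 call in the adjusted fit was lost without control 1, control 2, overexpressing library 1 or overexpressing library 2, with log2 fold changes of 0.22 to 0.37 over the 6 omissions and a largest adjusted p of 0.096. Its canonical transcript is 4812 bases long at 42.8% GC, and PGK1 was called higher with GC content alone as offset (0.25, adjusted p = 0.038) but not with the coding sequence (0.059, adjusted p = 0.54). PGAM1 was at 1054, 1031 and 985 CPM in the overexpressing libraries, against 976, 964 and 1008 CPM in the controls. PGAM1 had a log2 fold change of 0.058 (SE 0.04, adjusted p = 0.3), and of -0.14 (adjusted p = 0.0063) in the adjusted fit. PGAM1 moves the phosphate from carbon 3 to carbon 2, and it was called lower with the coding sequence adjustment (-0.14, adjusted p = 0.011) but not with GC content alone (-0.068, adjusted p = 0.16). ENO2 was at 63.8, 67.8 and 56.0 CPM in the overexpressing libraries, against 53.0, 52 and 57.0 CPM in the controls. ENO2 had a log2 fold change of 0.21 (SE 0.072, adjusted p = 0.045), and of 0.0054 (adjusted p = 0.96) in the adjusted fit. The ENO2 call as fitted was lost without control 1, control 2, overexpressing library 1 or overexpressing library 2, with log2 fold changes of 0.15 to 0.28 over the 6 omissions and a largest adjusted p of 0.15. The neuron-type enolase ENO2 overlapped between the groups. ENO3 was at 5.98, 5.73 and 5.38 CPM in the overexpressing libraries, against 3.14, 2.57 and 3.03 CPM in the controls. ENO3 had a log2 fold change of 0.97 (SE 0.14, adjusted p = 0.00074), and of 0.68 (adjusted p = 0.0049) in the adjusted fit. All overexpressing libraries lay above all controls for this muscle-type enolase, which was rare all the same at 7.81 ± 0.210 TPM in the overexpressing libraries and 4.34 ± 0.435 TPM in the controls, against 54.3 ± 4.79 TPM in the overexpressing libraries and 50.9 ± 1.96 TPM in the controls for ENO2. ENO3 made up 12.9%, 11.8% and 13.2% of the ENO2 and ENO3 level in the overexpressing libraries, against 8.56%, 7.23% and 7.74% in the controls (exact 2-sided permutation test, p = 0.10, the smallest possible). With the union of exons as length ENO3 made up 8.55%, 7.77% and 8.75% in the overexpressing libraries, against 5.58%, 4.69% and 5.03% in the controls.

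The deposited entries with the symbols HK2, LDHA, PKM and ENO1, among the 8 whose symbol and Ensembl ID disagree, were not used, so hexokinase 2, lactate dehydrogenase A, the muscle pyruvate kinase and enolase 1 were not analysed here.

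The lactate genes went apart. LDHB averaged 1232 ± 54.6 CPM in the overexpressing libraries and 1342 ± 69.7 CPM in the controls (SD, n = 3 each), and its log2 fold change was -0.12 (adjusted p = 0.084), or -0.048 (adjusted p = 0.39) in the adjusted fit. LDHB, the lactate dehydrogenase subunit common in heart, was called only with the coding sequence adjustment (0.12, adjusted p = 0.035). SLC16A1 was at 74.3, 69.4 and 78.1 CPM in the overexpressing libraries, against 89.8, 89.2 and 88.2 CPM in the controls. SLC16A1 had a log2 fold change of -0.27 (SE 0.05, adjusted p = 0.0029), and of 0.022 (adjusted p = 0.74) in the adjusted fit. SLC16A1 codes for MCT1, which carries lactate in either direction. SLC16A3 was at 475, 493 and 448 CPM in the overexpressing libraries, against 395, 398 and 450.2 CPM in the controls. SLC16A3 had a log2 fold change of 0.19 (SE 0.059, adjusted p = 0.033), and of -0.12 (adjusted p = 0.027) in the adjusted fit. The SLC16A3 call as fitted was lost without control 1, control 2, overexpressing library 1 or overexpressing library 2, with log2 fold changes of 0.15 to 0.25 over the 6 omissions and a largest adjusted p of 0.13. SLC16A3 codes for MCT4, the lactate exporter of glycolytic cells, and it was higher as fitted and lower in the adjusted fit. The SLC16A3 call in the adjusted fit was lost without control 1, control 2, control 3, overexpressing library 1 or overexpressing library 3, with log2 fold changes of -0.13 to -0.098 over the 6 omissions and a largest adjusted p of 0.084. GC content alone also called SLC16A3 lower (-0.11, adjusted p = 0.049), and the coding sequence adjustment did not (-0.074, adjusted p = 0.18). MCT4 was the more abundant, at 362 ± 16.7 TPM in the overexpressing libraries and 345 ± 22.1 TPM in the controls, with MCT1 at 39.3 ± 2.85 TPM in the overexpressing libraries and 51.4 ± 0.967 TPM in the controls. The MCT1 share of both was 9.79%, 8.88% and 10.8% in the overexpressing libraries, against 13.6%, 13.4% and 11.9% in the controls (exact 2-sided permutation test, p = 0.10, the smallest possible). With the union of exons as length the MCT1 share was 18.6%, 16.99% and 20.2% in the overexpressing libraries, against 24.8%, 24.6% and 22.2% in the controls.

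**Figure D3:**
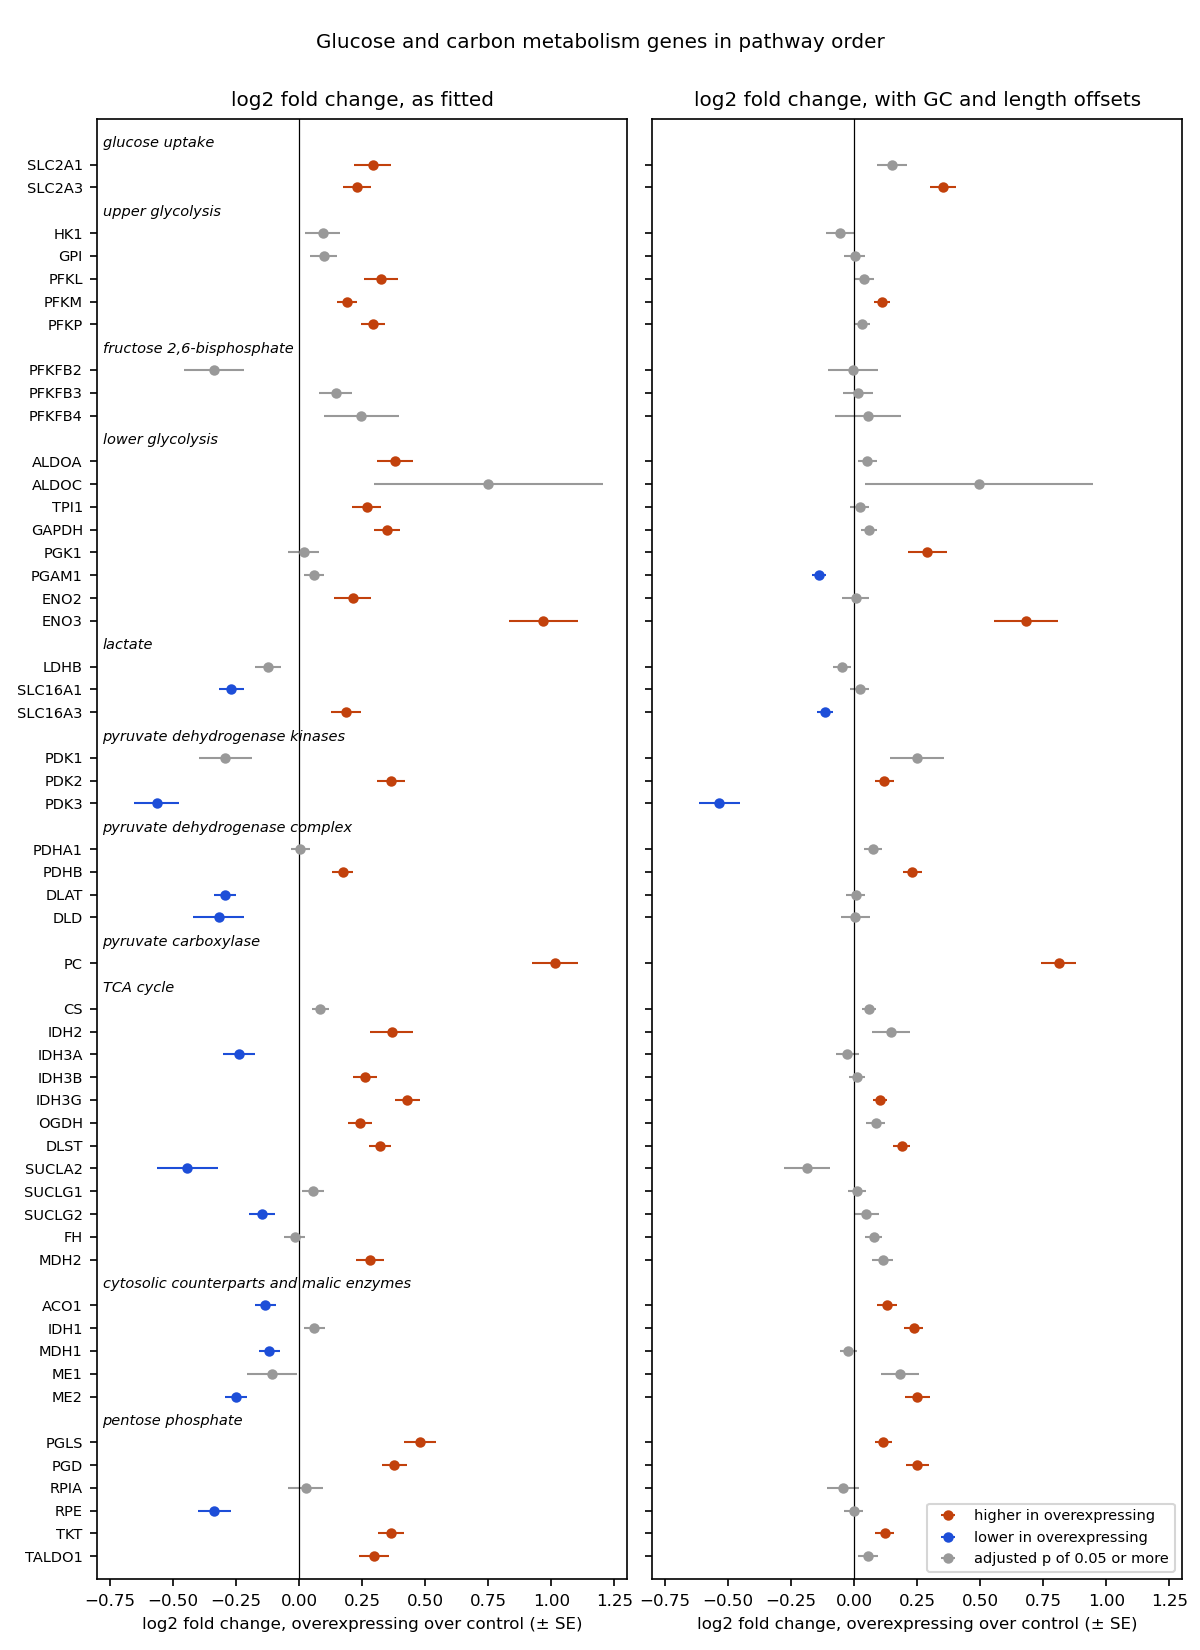
Log2 fold change with its SE (overexpressing over control, 3 libraries each) of the 52 genes, grouped by step from glucose uptake to the pentose phosphate pathway, as fitted (left) and with GC and length offsets (right). Orange marks genes higher and blue genes lower at an adjusted p under 0.05; 24 are orange and 11 blue on the left, 15 and 3 on the right.

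Pyruvate dehydrogenase kinases phosphorylate the pyruvate dehydrogenase complex and switch it off, and 2 of the 3 genes were called, in opposite directions. PDK3 was at 11.2, 10.5 and 11.7 CPM in the overexpressing libraries, against 16.7, 17.05 and 15.7 CPM in the controls. PDK3 had a log2 fold change of -0.56 (SE 0.089, adjusted p = 0.0013), and of -0.53 (adjusted p = 0.0016) in the adjusted fit. Every overexpressing library lay below every control, and the call held in all 4 fits and without any 1 library, with a log2 fold change from -0.60 to -0.52 as fitted and from -0.57 to -0.50 in the adjusted fit. PDK2 was at 83.7, 82.7 and 76.9 CPM in the overexpressing libraries, against 59.1, 63.5 and 66.5 CPM in the controls. PDK2 had a log2 fold change of 0.36 (SE 0.056, adjusted p = 0.0012), and of 0.12 (adjusted p = 0.046) in the adjusted fit. The PDK2 call in the adjusted fit was lost without any 1 of the 6 libraries, with log2 fold changes of 0.09 to 0.14 over the 6 omissions and a largest adjusted p of 0.16. PDK2 was called with the coding sequence adjustment (0.16, adjusted p = 0.021) but not with GC content alone (0.10, adjusted p = 0.064). An opposite-strand gene, SAMD14, covers 62.8% of the PDK2 transcript, at 2.34 CPM in the overexpressing libraries and 1.54 CPM in the controls. PDK1 was at 8.34, 8.90 and 9.85 CPM in the overexpressing libraries, against 10.8, 10.9 and 11.5 CPM in the controls. PDK1 had a log2 fold change of -0.29 (SE 0.10, adjusted p = 0.053), and of 0.25 (adjusted p = 0.13) in the adjusted fit. PDK1, a hypoxia-inducible kinase, was not called in either fit, and its value changed sign. By level per canonical transcript length PDK2 led, at 48.0 ± 1.35 TPM in the overexpressing libraries and 40.6 ± 2.10 TPM in the controls, ahead of PDK3 at 12.8 ± 0.873 TPM in the overexpressing libraries and 20.5 ± 1.07 TPM in the controls and PDK1 at 1.28 ± 0.144 TPM in the overexpressing libraries and 1.70 ± 0.0425 TPM in the controls. The PDK2 share of the 3 was 78.0%, 78.7% and 75.5% in the overexpressing libraries, against 62.9%, 64.1% and 66.8% in the controls, and that of PDK3 was 20.1%, 19.3% and 22.2%, against 34.3%, 33.2% and 30.5% (exact 2-sided permutation test, p = 0.10 for each, the smallest possible). With the union of exons as length in place of the canonical transcript, PDK2 held 92.7%, 92.6% and 91.3% in the overexpressing libraries, against 86.5%, 87.2% and 87.9% in the controls. PDK3 then held 3.88%, 3.69% and 4.36% in the overexpressing libraries, against 7.65%, 7.33% and 6.51% in the controls, close to PDK1 at 3.41%, 3.67% and 4.31% in the overexpressing libraries, against 5.82%, 5.52% and 5.61% in the controls. The shares come from unadjusted counts, and PDK2 is the more GC-rich at 59.7%, against 45.3% in PDK3.

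Subunits of the pyruvate dehydrogenase complex did not move together. PDHA1 was at 138, 133 and 138 CPM in the overexpressing libraries, against 136, 135 and 137 CPM in the controls. PDHA1 had a log2 fold change of 0.0041 (SE 0.039, adjusted p = 0.95), and of 0.076 (adjusted p = 0.16) in the adjusted fit. This E1 alpha subunit carries the sites that the kinases phosphorylate, and an opposite-strand gene covers 28.5% of its transcript. PDHB was at 117, 113 and 114 CPM in the overexpressing libraries, against 98.4, 102 and 105 CPM in the controls. PDHB had a log2 fold change of 0.17 (SE 0.041, adjusted p = 0.0098), and of 0.23 (adjusted p = 0.0025) in the adjusted fit. The PDHB call as fitted was lost without control 1, with log2 fold changes of 0.15 to 0.19 over the 6 omissions and a largest adjusted p of 0.05. PDHB, the E1 beta subunit, is AT-rich at 44.3% GC and was higher in all 4 fits. DLAT was at 94.4, 89.3 and 95.0 CPM in the overexpressing libraries, against 117, 113 and 112 CPM in the controls. DLAT had a log2 fold change of -0.29 (SE 0.043, adjusted p = 0.00089), and of 0.0056 (adjusted p = 0.94) in the adjusted fit. DLD was at 67.4, 58.5 and 78.5 CPM in the overexpressing libraries, against 84.5, 92.2 and 78.6 CPM in the controls. DLD had a log2 fold change of -0.32 (SE 0.10, adjusted p = 0.032), and of 0.0052 (adjusted p = 0.97) in the adjusted fit. The DLD call as fitted was lost without control 1, control 2, overexpressing library 1 or overexpressing library 2, with log2 fold changes of -0.44 to -0.22 over the 6 omissions and a largest adjusted p of 0.11. DLAT and DLD, the E2 core and the E3 dehydrogenase, lay below all controls as fitted and near 0 in the adjusted fit. DLAT was still called lower with the coding sequence adjustment (-0.16, adjusted p = 0.013), and not with GC content alone (0.033, adjusted p = 0.61). The PDHB share of the summed level of the 4 subunits was 47.7%, 48.6% and 46.3% in the overexpressing libraries, against 40.8%, 41.5% and 43.0% in the controls (exact 2-sided permutation test, p = 0.10, the smallest possible). With the union of exons as length it was 31.5%, 32.4% and 30.2% in the overexpressing libraries, against 26.0%, 26.4% and 27.7% in the controls, and PDHA1 held the largest share.

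**Figure D4:**
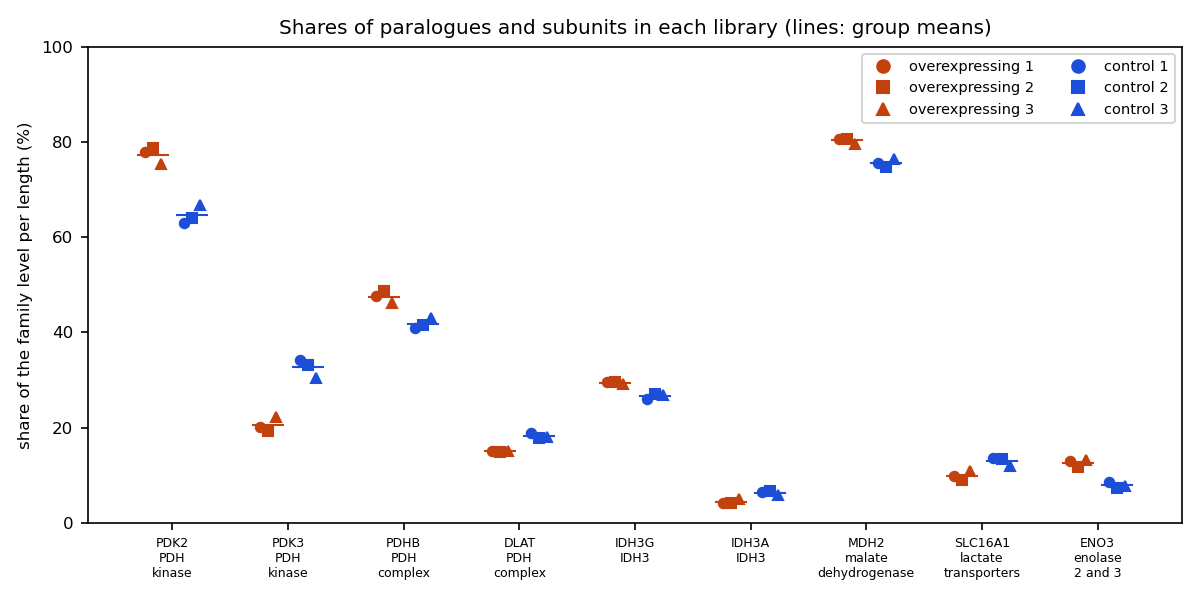
Share in percent of the summed level per transcript length within a family or complex (canonical transcript length), for 9 genes, with one point for each library, a line at each group mean, and overexpressing libraries left of the controls. The 9 are a selection, and shares not drawn include some that overlap between the groups, such as those of SLC2A1, SUCLA2 and ME1. The shares come from counts not adjusted for GC content. The groups do not overlap in any of the 9 drawn, and PDK2 lies at 75.5% to 78.7% in the overexpressing libraries and 62.9% to 66.8% in the controls.

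Pyruvate carboxylase, PC, showed the largest difference of the 52. PC makes oxaloacetate from pyruvate and so refills the TCA cycle. PC was at 26.9, 27.6 and 24.5 CPM in the overexpressing libraries, against 12.4, 12.4 and 14.3 CPM in the controls. PC had a log2 fold change of 1.01 (SE 0.091, adjusted p = 0.00015), and of 0.81 (adjusted p = 0.00011) in the adjusted fit. That is a 2.02-fold difference, and it held in all 4 fits and without any 1 library, with log2 fold changes from 0.98 to 1.09 as fitted and from 0.79 to 0.85 in the adjusted fit. PC was the only one of the 52 past a further 2-fold threshold, which 1.34% of all entries passed as higher and 0.775% as lower, and it was among the rarer ones at 12.2 ± 0.643 TPM in the overexpressing libraries and 6.55 ± 0.499 TPM in the controls.

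Promoter sequence, 250 bases before to 50 after the start, was taken from RefSeq (GRCh38.p14) for the 3 genes with the largest called differences. Capitals mark ACGTG, on either strand, which is only one form of the core that hypoxia-inducible factors bind (A or G, then CGTG). The other form, GCGTG, was neither marked nor counted, and it occurs in the stretches of ENO3 and PDK3 below. RefSeq lists 3 starts for PC and 2 for ENO3, and for both the first listed is shown. They lie at chr11:66958334-66958633 on the minus strand for PC, chr17:4950302-4950601 on the plus strand for ENO3 and chrX:24465036-24465335 on the plus strand for PDK3.
PC: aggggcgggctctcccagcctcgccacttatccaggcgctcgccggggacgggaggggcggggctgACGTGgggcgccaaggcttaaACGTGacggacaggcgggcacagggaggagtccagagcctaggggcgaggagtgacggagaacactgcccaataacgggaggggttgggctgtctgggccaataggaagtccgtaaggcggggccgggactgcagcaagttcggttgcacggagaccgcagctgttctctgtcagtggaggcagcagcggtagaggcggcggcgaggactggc
ENO3: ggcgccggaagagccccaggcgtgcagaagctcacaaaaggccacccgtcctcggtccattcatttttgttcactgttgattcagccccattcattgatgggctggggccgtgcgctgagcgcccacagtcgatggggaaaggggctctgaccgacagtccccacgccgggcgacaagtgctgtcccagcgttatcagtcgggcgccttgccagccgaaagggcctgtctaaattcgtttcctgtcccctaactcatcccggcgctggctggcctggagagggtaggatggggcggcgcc
PDK3: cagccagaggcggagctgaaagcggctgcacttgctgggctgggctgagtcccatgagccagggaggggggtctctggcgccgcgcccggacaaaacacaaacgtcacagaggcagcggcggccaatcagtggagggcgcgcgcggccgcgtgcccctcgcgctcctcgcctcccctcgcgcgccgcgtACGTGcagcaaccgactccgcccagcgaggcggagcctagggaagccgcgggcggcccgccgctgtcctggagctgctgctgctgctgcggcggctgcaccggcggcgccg
The PC promoter held 2 copies of ACGTG, that of PDK3 held 1 and that of ENO3 none, nor did the other listed starts of PC and ENO3. Promoters of 48 of the 52 genes were found, with 80 starts, and 23 of these (28.8%) held ACGTG, against 21.4% of all 35116 promoters. CACGTG, the E-box that overlaps it, was in 7.50% of the 80 and 7.26% of all, and TGATGNAA, a core bound by ATF4 and C/EBP factors, in 2.50% and 3.62%. A match is a description of these letters and not a bound site.

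Among the 12 mitochondrial TCA cycle genes 6 were higher and 3 lower as fitted, and 2 were higher in the adjusted fit. CS averaged 526 ± 5.21 CPM in the overexpressing libraries and 497 ± 2.91 CPM in the controls (SD, n = 3 each), and its log2 fold change was 0.083 (adjusted p = 0.087), or 0.059 (adjusted p = 0.18) in the adjusted fit. Citrate synthase thus opened the cycle with no call, and the adjustments by GC content alone (0.096, adjusted p = 0.04) and by coding sequence (0.11, adjusted p = 0.025) called it as higher. IDH2 was at 19.4, 17.5 and 17.1 CPM in the overexpressing libraries, against 13.8, 13.7 and 14.4 CPM in the controls. IDH2 had a log2 fold change of 0.37 (SE 0.085, adjusted p = 0.0082), and of 0.15 (adjusted p = 0.21) in the adjusted fit. IDH2 makes NADPH in mitochondria. The 3 subunits of the NAD-dependent isocitrate dehydrogenase split. IDH3A was at 45.5, 43.0 and 49.9 CPM in the overexpressing libraries, against 54.9, 55.9 and 52.6 CPM in the controls. IDH3A had a log2 fold change of -0.24 (SE 0.062, adjusted p = 0.014), and of -0.027 (adjusted p = 0.73) in the adjusted fit. The IDH3A call as fitted was lost without control 2 or overexpressing library 1, with log2 fold changes of -0.30 to -0.19 over the 6 omissions and a largest adjusted p of 0.057. IDH3B was at 272, 260.1 and 251 CPM in the overexpressing libraries, against 218, 209.6 and 226 CPM in the controls. IDH3B had a log2 fold change of 0.26 (SE 0.047, adjusted p = 0.0023), and of 0.011 (adjusted p = 0.84) in the adjusted fit. The catalytic alpha subunit fell and the beta subunit rose as fitted, and neither was called in the adjusted fit. IDH3B was higher with the coding sequence adjustment (0.14, adjusted p = 0.024) and not called with GC content alone (0.088, adjusted p = 0.092). IDH3G was at 105, 101 and 95.9 CPM in the overexpressing libraries, against 72.5, 73.9 and 77.8 CPM in the controls. IDH3G had a log2 fold change of 0.43 (SE 0.05, adjusted p = 0.00036), and of 0.10 (adjusted p = 0.034) in the adjusted fit. The IDH3G call in the adjusted fit was lost without any 1 of the 6 libraries, with log2 fold changes of 0.095 to 0.11 over the 6 omissions and a largest adjusted p of 0.11. Alpha made up 4.18%, 4.14% and 4.96% of the summed IDH3 level in the overexpressing libraries, against 6.44%, 6.68% and 5.91% in the controls (exact 2-sided permutation test, p = 0.10, the smallest possible).

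Further round the cycle the 2-oxoglutarate dehydrogenase complex was higher in the parts particular to it. OGDH was at 298, 279.9 and 272 CPM in the overexpressing libraries, against 239.8, 233 and 247 CPM in the controls. OGDH had a log2 fold change of 0.24 (SE 0.046, adjusted p = 0.0032), and of 0.085 (adjusted p = 0.15) in the adjusted fit. OGDH, the E1 subunit, was called higher with the coding sequence adjustment (0.21, adjusted p = 0.0051) but not with GC content alone (0.033, adjusted p = 0.56). DLST was at 306, 295 and 282 CPM in the overexpressing libraries, against 233, 234 and 239.6 CPM in the controls. DLST had a log2 fold change of 0.32 (SE 0.042, adjusted p = 0.00057), and of 0.19 (adjusted p = 0.0039) in the adjusted fit. DLST, the E2 core of that complex, kept its call in all 4 fits and without any 1 library. Succinyl-CoA ligase pairs the alpha subunit SUCLG1 with a beta subunit specific for ATP (SUCLA2) or GTP (SUCLG2). SUCLA2 was at 15.9, 15.9 and 18.9 CPM in the overexpressing libraries, against 23.1, 26.4 and 19.6 CPM in the controls. SUCLA2 had a log2 fold change of -0.44 (SE 0.12, adjusted p = 0.017), and of -0.19 (adjusted p = 0.18) in the adjusted fit. The SUCLA2 call as fitted was lost without control 1, control 2, overexpressing library 1 or overexpressing library 2, with log2 fold changes of -0.55 to -0.34 over the 6 omissions and a largest adjusted p of 0.075. SUCLG2 was at 37.2, 38.2 and 39.6 CPM in the overexpressing libraries, against 42.3, 42.2 and 43.0 CPM in the controls. SUCLG2 had a log2 fold change of -0.15 (SE 0.051, adjusted p = 0.047), and of 0.049 (adjusted p = 0.55) in the adjusted fit. The SUCLG2 call as fitted was lost without control 1, control 2, control 3, overexpressing library 1 or overexpressing library 2, with log2 fold changes of -0.17 to -0.13 over the 6 omissions and a largest adjusted p of 0.14. Both beta subunits are AT-rich, at 38.4% and 41.2% GC, and neither was called in the adjusted fit. SUCLG1 averaged 115 ± 4.69 CPM in the overexpressing libraries and 110.4 ± 1.10 CPM in the controls (SD, n = 3 each), and its log2 fold change was 0.055 (adjusted p = 0.37), or 0.012 (adjusted p = 0.87) in the adjusted fit. FH averaged 110.4 ± 1.58 CPM in the overexpressing libraries and 112 ± 2.97 CPM in the controls (SD, n = 3 each), and its log2 fold change was -0.018 (adjusted p = 0.77), or 0.077 (adjusted p = 0.13) in the adjusted fit. SUCLG1 and the fumarase FH were called in neither fit, although both added adjustments called them as higher, SUCLG1 at 0.12, adjusted p = 0.045 and 0.14, adjusted p = 0.03 and FH at 0.19, adjusted p = 0.0049 and 0.19, adjusted p = 0.0057. MDH2 was at 830.4, 775 and 734 CPM in the overexpressing libraries, against 640.0, 614 and 672 CPM in the controls. MDH2 had a log2 fold change of 0.28 (SE 0.054, adjusted p = 0.0032), and of 0.11 (adjusted p = 0.084) in the adjusted fit. The mitochondrial malate dehydrogenase closes the cycle, and MDH2 was called higher with GC content alone as offset (0.17, adjusted p = 0.02) but not with the coding sequence (0.083, adjusted p = 0.18).

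The cytosolic counterparts of TCA cycle enzymes and the malic enzymes included 2 of 5 genes that were called in opposite directions by the fits. MDH1 was at 118, 111 and 112 CPM in the overexpressing libraries, against 123, 124 and 123 CPM in the controls. MDH1 had a log2 fold change of -0.12 (SE 0.042, adjusted p = 0.049), and of -0.023 (adjusted p = 0.69) in the adjusted fit. The MDH1 call as fitted was lost without control 1, control 2, control 3, overexpressing library 2 or overexpressing library 3, with log2 fold changes of -0.15 to -0.098 over the 6 omissions and a largest adjusted p of 0.16. MDH1 works in the malate-aspartate shuttle, and MDH2 held 80.7%, 80.7% and 79.6% of the summed malate dehydrogenase level in the overexpressing libraries, against 75.6%, 74.8% and 76.5% in the controls (exact 2-sided permutation test, p = 0.10, the smallest possible). ACO1 was at 76.1, 79.8 and 77.2 CPM in the overexpressing libraries, against 83.4, 85.5 and 86.9 CPM in the controls. ACO1 had a log2 fold change of -0.13 (SE 0.042, adjusted p = 0.031), and of 0.13 (adjusted p = 0.038) in the adjusted fit. The ACO1 call as fitted was lost without control 1, control 2, control 3, overexpressing library 1 or overexpressing library 3, with log2 fold changes of -0.15 to -0.12 over the 6 omissions and a largest adjusted p of 0.099. The ACO1 call in the adjusted fit was lost without control 1, control 2, overexpressing library 1 or overexpressing library 2, with log2 fold changes of 0.11 to 0.15 over the 6 omissions and a largest adjusted p of 0.15. Neither GC content alone (-0.014, adjusted p = 0.83) nor the coding sequence adjustment (0.1, adjusted p = 0.12) called ACO1. ACO1, the cytosolic aconitase that without its iron-sulfur cluster binds iron-responsive RNA elements, was thus called in opposite directions. ME2 was at 72.6, 68.0 and 70.3 CPM in the overexpressing libraries, against 83.8, 84.7 and 82.6 CPM in the controls. ME2 had a log2 fold change of -0.25 (SE 0.043, adjusted p = 0.0018), and of 0.25 (adjusted p = 0.0067) in the adjusted fit. ME2, a mitochondrial malic enzyme that makes pyruvate from malate, was also called in opposite directions, and both calls held without any 1 library. Its canonical transcript is 9031 bases long at 39.2% GC, and the added adjustments gave 0.10, adjusted p = 0.13 by GC content alone and 0.11, adjusted p = 0.15 by coding sequence, so that no single direction can be given. ME1 averaged 15.2 ± 1.54 CPM in the overexpressing libraries and 16.4 ± 0.745 CPM in the controls (SD, n = 3 each), and its log2 fold change was -0.11 (adjusted p = 0.44), or 0.18 (adjusted p = 0.11) in the adjusted fit. ME1, the cytosolic malic enzyme, was called higher with GC content alone as offset (0.24, adjusted p = 0.039) and not with the coding sequence (0.18, adjusted p = 0.12). IDH1 was at 65.9, 67.2 and 68.5 CPM in the overexpressing libraries, against 64.2, 65.1 and 64.1 CPM in the controls. IDH1 had a log2 fold change of 0.059 (SE 0.041, adjusted p = 0.3), and of 0.24 (adjusted p = 0.002) in the adjusted fit. IDH1, the cytosolic NADPH-making isocitrate dehydrogenase, was higher in all 3 adjusted versions, and held that call in the adjusted fit without any 1 library.

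In the pentose phosphate pathway 4 of 6 genes were higher and 1 lower as fitted, and 3 were higher in the adjusted fit. PGLS was at 99.4, 94.8 and 90.5 CPM in the overexpressing libraries, against 63.0, 67.6 and 73.7 CPM in the controls. PGLS had a log2 fold change of 0.48 (SE 0.063, adjusted p = 0.00057), and of 0.11 (adjusted p = 0.038) in the adjusted fit. The PGLS call in the adjusted fit was lost without any 1 of the 6 libraries, with log2 fold changes of 0.085 to 0.13 over the 6 omissions and a largest adjusted p of 0.15. PGLS hydrolyses the lactone of the oxidative branch and is the most GC-rich of the 52 at 65.9%. An opposite-strand entry, PGLS-DT, covers 23.9% of its transcript. PGD was at 551, 501 and 509 CPM in the overexpressing libraries, against 386, 395 and 421 CPM in the controls. PGD had a log2 fold change of 0.38 (SE 0.051, adjusted p = 0.00062), and of 0.25 (adjusted p = 0.004) in the adjusted fit. PGD, the second NADPH-making step, held its call in all 4 fits and without any 1 library. In the non-oxidative branch, which shuffles sugars back to glycolysis, TKT and TALDO1 were higher and RPE lower. TKT was at 582, 549 and 517 CPM in the overexpressing libraries, against 409, 428 and 443 CPM in the controls. TKT had a log2 fold change of 0.37 (SE 0.052, adjusted p = 0.00079), and of 0.12 (adjusted p = 0.047) in the adjusted fit. The TKT call in the adjusted fit was lost without any 1 of the 6 libraries, with log2 fold changes of 0.085 to 0.14 over the 6 omissions and a largest adjusted p of 0.17. TALDO1 was at 163, 147 and 143 CPM in the overexpressing libraries, against 117, 125 and 127 CPM in the controls. TALDO1 had a log2 fold change of 0.30 (SE 0.059, adjusted p = 0.0037), and of 0.055 (adjusted p = 0.39) in the adjusted fit. Transketolase TKT and transaldolase TALDO1 lay above all controls, and TALDO1 was called with the coding sequence adjustment (0.17, adjusted p = 0.037) but not with GC content alone (0.15, adjusted p = 0.053). RPE was at 41.7, 40.6 and 45.0 CPM in the overexpressing libraries, against 55.1, 56.4 and 49.2 CPM in the controls. RPE had a log2 fold change of -0.34 (SE 0.066, adjusted p = 0.0036), and of -0.0023 (adjusted p = 0.98) in the adjusted fit. RPE was still called lower with the coding sequence adjustment (-0.34, adjusted p = 0.0032) but not with GC content alone (0.073, adjusted p = 0.23). RPE, the ribulose phosphate epimerase, has the lowest GC content of the 52 at 36.2%, and an opposite-strand gene, KANSL1L, which was lower in the overexpressing cells (log2 fold change -0.64, adjusted p = 0.048), covers 26.4% of its transcript. RPIA averaged 25.5 ± 1.55 CPM in the overexpressing libraries and 25.0 ± 0.528 CPM in the controls (SD, n = 3 each), and its log2 fold change was 0.027 (adjusted p = 0.81), or -0.044 (adjusted p = 0.7) in the adjusted fit. RPIA, the ribose phosphate isomerase, was not called.

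Per transcript length, the 21 genes from glucose uptake to lactate summed to 29035, 28482 and 27433 TPM in the overexpressing libraries, against 24992, 24972 and 26211 TPM in the controls. GAPDH alone made up more of that sum than the other genes together. Of these genes 11 were higher and 1 lower as fitted, and 4 were higher and 2 lower in the adjusted fit.

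Further genes of the same pathways were counted from 8 lists, of which 88 of 102 genes were tested. As fitted 32 were higher and 26 lower, that is 36.4% and 29.5%, against 18.3% and 19.7% of all entries. In the adjusted fit 19 were higher and 11 lower, or 21.6% and 12.5%, against 11.5% and 11.1% of all entries. Values of these genes are log2 fold changes, overexpressing over control. Among other genes of glucose entry and glycolysis, 5 of 13 were higher and 2 lower (2 and 0 adjusted), with the transporter gene SLC2A6 at 0.55 as fitted (adjusted p = 0.00063) and 0.24 adjusted (adjusted p = 0.032) and the phosphoglucomutase PGM2 at -0.36 as fitted (adjusted p = 0.0042) and -0.068 adjusted (adjusted p = 0.26). BSG, the chaperone of lactate transporters, was at 0.39 as fitted (adjusted p = 0.00079) and 0.057 adjusted (adjusted p = 0.2). Of 5 genes of the glycerol phosphate shuttle and gluconeogenesis 3 were higher and 2 lower (1 and 2 adjusted). There the mitochondrial PEP carboxykinase PCK2 was at 0.71 as fitted (adjusted p = 0.00076) and 0.41 adjusted (adjusted p = 0.0049) and the glycerol phosphate dehydrogenases GPD2 at -0.56 as fitted (adjusted p = 0.00027) and -0.14 adjusted (adjusted p = 0.036) and GPD1L at -0.49 as fitted (adjusted p = 0.00082) and -0.28 adjusted (adjusted p = 0.014). The other pentose phosphate genes had 4 of 7 higher and 2 lower (2 and 1 adjusted), with PRPS2, which makes phosphoribosyl pyrophosphate, at -0.32 as fitted (adjusted p = 0.0016) and -0.16 adjusted (adjusted p = 0.025). Of 10 further genes of pyruvate import and pyruvate dehydrogenase 1 was higher and 3 lower (1 and 0 adjusted): the pyruvate carrier subunit MPC2 was at 0.20 as fitted (adjusted p = 0.012) and 0.35 adjusted (adjusted p = 0.001) and the pyruvate dehydrogenase phosphatases PDP1 at -0.33 as fitted (adjusted p = 0.00091) and -0.0094 adjusted (adjusted p = 0.9) and PDP2 at -0.46 as fitted (adjusted p = 0.0031) and -0.17 adjusted (adjusted p = 0.14).

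Of 10 other TCA cycle genes 5 rose and 2 fell (3 and 1 adjusted), with the succinate dehydrogenase subunits SDHC at 0.19 as fitted (adjusted p = 0.01) and 0.15 adjusted (adjusted p = 0.016) and SDHD at -0.19 as fitted (adjusted p = 0.014) and 0.012 adjusted (adjusted p = 0.91). The malate-aspartate and anaplerosis list had 5 of 11 higher and 3 lower (3 and 3 adjusted). There the citrate carrier SLC25A1 was at 0.46 as fitted (adjusted p = 0.00079) and 0.11 adjusted (adjusted p = 0.058), and the glutamate dehydrogenase GLUD1 at -0.24 as fitted (adjusted p = 0.00096) and -0.13 adjusted (adjusted p = 0.017). In the hexosamine, glycogen and sugar nucleotide list 5 of 14 were higher and 8 lower (4 and 2 adjusted), with the hexosamine enzymes GFPT2 at 0.77 as fitted (adjusted p = 0.0017) and 0.65 adjusted (adjusted p = 0.0057) and UAP1 at -0.50 as fitted (adjusted p = 0.00016) and -0.18 adjusted (adjusted p = 0.013). Of 18 regulators 4 were higher and 4 lower (3 and 2 adjusted). EPAS1, which codes for HIF-2 alpha, was at 1.38 as fitted (adjusted p = 0.00026) and 1.35 adjusted (adjusted p = 0.0003), with 5.32, 6.11 and 6.71 CPM in the overexpressing libraries, against 2.11, 2.50 and 2.35 CPM in the controls, and HIF1A, for HIF-1 alpha, at -0.59 as fitted (adjusted p = 0.00036) and -0.27 adjusted (adjusted p = 0.0011), with 83.8, 75.8 and 91.2 CPM in the overexpressing libraries, against 129, 131 and 119 CPM in the controls. The groups did not overlap in EPAS1 or HIF1A.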

How the data were processed

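RNA-seq counts were analysed for 3 overexpressing and 3 control libraries of H1299 cells. The deposited values are raw counts per gene, whole numbers that the authors did not normalise, and no aligner, counter or strand setting is named in the sources used here. The last 8 entries, whose symbol and ID disagree, were not used. Differences were tested with edgeR 4.0.16 (TMM scaling, filterByExpr with a minimum count of 10, quasi-likelihood F test, Benjamini-Hochberg adjustment over all 19101 entries tested, threshold 0.05), in R 4.3.3. The SE was taken as |log2 fold change| over the root of F. Levels between genes are TPM from GENCODE 44 canonical transcript lengths, with the union of exons as an alternative. The adjusted fit added offsets per library from natural splines with 5 degrees of freedom on GC content and log2 length. Versions with GC content alone or the coding sequence were added after the data were seen. Fits were tested on simulated data with 200 changed genes. Without a GC trend, the fit without offsets and the adjusted fit made 9 false calls each. With a GC trend, set alike in all overexpressing libraries, they made 4274 and 12. That trend was linear in the same GC content that the offsets model, so the fall in false calls was built in. Of the simulated 1.5-fold changes each fit recovered 68% without the trend. With the trend the fit without offsets recovered 81% and the adjusted fit 71%. Every one of the 52 genes was named, with values per library for those called in either fit and for families whose members differ in call, and from each pathway list up to 2 genes in each direction with the smallest p were eligible. The genes and lists were chosen with earlier results of these data known. Named here are only some of those eligible, and some genes that the rule names are not reported here. Alternatives were DESeq2 1.42.0, limma 3.58.1, other scalings and filters, a replicate block and leaving out each library.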

Additional observations from a re-analysis of the deposited data

How the results depend on the processing

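Scaling, filters, DESeq2 and limma-voom left the numbers of genes called among the 52 within 1.5 times those reported, and the offsets moved them. With GC and length offsets 15 of the 52 were higher and 3 lower (median 0.057), and 2204 and 2118 of all entries were higher and lower. GC content alone left 2 of the 52 and 2460 of all entries lower, and the coding sequence 4 and 2432. Beyond a 2-fold threshold 255 of all entries were higher and 148 lower, and 1 and 0 of the 52. Leaving out 1 library gave 21 to 25 higher and 5 to 11 lower of the 52, and 2586 to 3439 and 2867 to 3730 of all entries, with medians of 0.12 to 0.18. With the offsets these ranges, added after the data were seen, were 8 to 11 and 2 to 3, and 1535 to 1932 and 1366 to 1814, with medians of 0.041 to 0.077. Same-numbered libraries did not deviate together (correlations -0.0735, -0.262 and -0.4377 over 10091 genes), and none correlated best with its own number. With 3 libraries per group, which also differ in how levels follow GC content, this check cannot decide whether the numbers pair libraries. The labels do not say. The replicate block gave 21 higher and 6 lower of the 52, and with the offsets 8 and 2, a median of 0.059, and 1744 and 1611 of all entries.

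Called values changed sign as follows, given with GC and length offsets, then with the replicate block added. ME2 was 0.25 and 0.25, DLD 0.0052 and 0.0023, ACO1 0.13 and 0.13, SLC16A3 -0.12 and -0.12, DLAT 0.0056 and 0.0059. SLC16A1 was 0.022 and 0.022, PGAM1 -0.14 and -0.14, and SUCLG2 0.049 and 0.049. With GC content alone the values were MDH1 0.11, ME1 0.24, ME2 0.10, DLD 0.058, FH 0.19, SLC16A3 -0.11, DLAT 0.033, SLC16A1 0.056, SUCLG2 0.15 and RPE 0.073. With the coding sequence they were MDH1 0.075, ME2 0.11, DLD 0.0086, FH 0.19, LDHB 0.12, ACO1 0.10, SLC16A3 -0.074 and PGAM1 -0.14. The cause was not tested. Between 1 and 6 of the 52 also changed sign under single settings without being called under either fit. Depth limits ALDOC, at 16 to 38 counts a library.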
